A study of Mus musculus with 14 samples.

Results

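The interval from 16 h to 24 h after the start of GATA6 induction was described from 4 lists of accessible regions, 2 libraries at each time, all from cells that had received doxycycline (Dox) for 12 h and then none. The lists were merged wherever peaks overlapped by at least 1 bp, which gave 80464 regions, against 124598 when all 14 libraries of the series were merged. Gained regions were those that both 24 h libraries called and no 16 h library did, lost regions were those with the opposite calls, and shared regions were those that all 4 libraries called. By this rule 3195 regions were gained (3.97% of all regions), 7758 were lost (9.64%) and 39377 were shared (48.9%). These 3 percentages are fixed by the rule and are given as the background for what follows.

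Accessibility was measured by ATAC-seq, in which a transposase inserts sequencing adapters into open DNA, on 50000 cells per library. KH2, the line used, is a mouse embryonic stem (ES) cell line, given as strain C57BL/6, and here carried the transgene TRE:GATA6-DsRed2, which Dox switches on. Cells at 0 h were in 2i medium with LIF and had no Dox, and cells at 2, 4 and 8 h were in serum medium with LIF and Dox at 1 µg/mL. Cells at 16, 24 and 48 h had the same medium with Dox for 12 h and were then kept in it without Dox, for 4, 12 and 36 h. Every group carried the transgene, all came from a single line, no library came from uninduced cells in serum medium, and the labels name no sort for induced cells. The labels do not say whether the 2 libraries of a time came from separate cultures, so every SD here is the spread between 2 libraries and may be technical. Starts of 5 ES cell genes (Pou5f1, Sox2, Nanog, Esrrb and Zfp42) were called in 5, 5, 5 and 4 of 5 cases in the 16 h and 24 h libraries, and starts of 5 primitive endoderm genes (Gata6, Gata4, Sox17, Sox7 and Pdgfra) in 5 of 5 in all 4 libraries. The primitive endoderm starts were also called in 4 and 5 of 5 cases at 0 h, so calls at these starts do not separate the states. Of the starts of 10 trophectoderm genes, a lineage not labelled here, 9 or 10 were called in each of the 4 libraries, against 3 to 5 of 12 genes of unrelated tissues.

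GATA6 is a zinc-finger transcription factor that binds GATA sequences and directs cells of the inner cell mass to primitive endoderm (PrE), the layer that forms the yolk sac endoderm and lays down its basement membrane. The alternative fate, epiblast (Epi), is held by NANOG, OCT4 and SOX2, and ES cells in culture resemble it. In the PrE, GATA4 and SOX17 act after GATA6, while FGF4 made by Epi cells signals through FGF receptors and ERK in the PrE. Enhancers that carry such programmes lie mostly away from gene starts, and a region that opens is one to which regulatory proteins have access.

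Of the changed regions, 6 are shown by sequence because they carry the letters, ranks or genes described below, with the 200 bases at their centres on the plus strand of the RefSeq GRCm38 genome. They were picked from the 5 highest-ranked gained and the 5 highest-ranked lost regions over 5 kb from a gene start, and from the highest-ranked gained regions near PrE and lost regions near Epi genes of the study. Capitals mark the searched letters on either strand, which here were those of GATA factors (A or T, then GATA, then A or G). The first 3 regions were gained and the last 3 were lost.
Mocs2 gained, chr13:114680324-114680523: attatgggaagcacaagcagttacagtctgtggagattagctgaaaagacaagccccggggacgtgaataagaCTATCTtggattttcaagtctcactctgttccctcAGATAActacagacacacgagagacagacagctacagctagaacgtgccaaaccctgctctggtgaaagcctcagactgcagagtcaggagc
Hunk gained, chr16:90412272-90412471: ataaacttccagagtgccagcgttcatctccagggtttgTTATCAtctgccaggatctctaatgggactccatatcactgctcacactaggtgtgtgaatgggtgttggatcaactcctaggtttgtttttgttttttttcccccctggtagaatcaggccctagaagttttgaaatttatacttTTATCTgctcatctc
Ptpn14 gained, chr1:189732255-189732454: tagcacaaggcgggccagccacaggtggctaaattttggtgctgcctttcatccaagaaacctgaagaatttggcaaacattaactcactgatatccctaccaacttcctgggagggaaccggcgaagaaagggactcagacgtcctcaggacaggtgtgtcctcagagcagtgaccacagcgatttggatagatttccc
Btbd3 lost, chr2:138497928-138498127: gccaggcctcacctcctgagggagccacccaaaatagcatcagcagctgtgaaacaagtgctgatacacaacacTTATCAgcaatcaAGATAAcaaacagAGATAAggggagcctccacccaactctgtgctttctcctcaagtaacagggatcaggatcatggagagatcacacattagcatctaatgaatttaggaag
Txnrd3 lost, chr6:89653158-89653357: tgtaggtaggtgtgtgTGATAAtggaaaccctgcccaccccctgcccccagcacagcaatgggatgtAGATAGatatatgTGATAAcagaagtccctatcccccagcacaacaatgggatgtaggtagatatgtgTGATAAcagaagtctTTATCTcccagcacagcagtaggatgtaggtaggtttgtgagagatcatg
Lef1 lost, chr3:131102350-131102549: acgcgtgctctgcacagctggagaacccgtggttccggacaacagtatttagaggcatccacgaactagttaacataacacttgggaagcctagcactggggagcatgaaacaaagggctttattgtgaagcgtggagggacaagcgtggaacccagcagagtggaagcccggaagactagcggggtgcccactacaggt
The lost Txnrd3 window held 5 GATA matches and the lost Btbd3 window held 3, while the gained Mocs2 and Hunk windows held 2 each. The Ptpn14 and Lef1 windows held none. Not every region of those sets is printed: the windows of the lost regions near Rsu1, Kl and Traf3, described below, held 0, 1 and 2 GATA matches.

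More regions were lost than gained between the 2 times. The lost regions were 2.43 times as many as the gained ones, so that gained regions made up 29.2% of the 10953 that differed. With 1 library of each time, compared by replicate number, the gained share was 38.3% and 35.0%. The 16 h lists held 61857 and 65073 peaks, covering 29.6 and 31.2 Mb, and the 24 h lists held 56981 and 58242 peaks, covering 24.6 and 26.1 Mb, so neither measure overlapped between the times. Since no exact test of 2 libraries against 2 can pass 0.05, these counts carry no p. The study's table of reads lists more reads for both 16 h libraries than for both 24 h libraries, so depth and time cannot be told apart for the balance of lost and gained regions. When only the 50000 highest scores of each library were kept, 4078 regions were gained, 5558 were lost and the gained share was 42.3%. Leaving out any 1 library, so that 1 list alone stood for its time, gave 5171 to 6842 gained and 10284 to 14106 lost regions.

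Libraries of the same time were more alike than libraries of different times. The Jaccard index, the bases covered in both lists over those covered in either, was 0.706 between the 16 h libraries and 0.691 between the 24 h libraries. Over the 4 pairs of different times it lay between 0.576 and 0.603. The other regions were called in 1 of the 2 libraries of at least 1 time. Of these, 9661 were called in 1 library of 16 h alone and 6562 in 1 library of 24 h alone. A further 3810 were called in 1 library of each time, 5916 in both of 16 h and 1 of 24 h, and 4185 in 1 of 16 h and both of 24 h. The rule thus cuts through a range: the median of a region's highest score percentile was 30.6 in gained regions, 37.5 in those that 1 library of 16 h also called, and 9.91 in those called in only 1 library of 24 h. The same medians were 35.0 for lost regions, 42.0 where 1 library of 24 h also called them, and 9.76 for those called in only 1 library of 16 h. Gained regions were narrow, with a median merged width of 327 bp against 450 bp for lost and 585 bp for shared regions. The peaks of the 24 h lists were themselves narrower, with a median of 400 bp against 447 bp at 16 h, and shared regions merge peaks of 4 lists.

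The 10 libraries that took no part in the rule show what came before and after. Gained regions were mostly not called before 24 h and mostly called at 48 h. They were called to 14.5% and 20.4% in the 0 h libraries and to 15.8% and 17.2% in those of 2 h. The 4 h libraries called 14.1% and 16.0% of them, and the 8 h libraries 19.5% and 24.4%. The 48 h libraries called 70.0% and 74.9% of them, so that both lay above all 8 earlier libraries. The mean at 48 h was 72.5% ± 3.41 (SD, n = 2) against 17.7% ± 3.51 (SD, n = 8) from 0 to 8 h, a difference of 54.7 percentage points (exact two-sided permutation test over libraries, p = 0.0444, adjusted p = 0.0444 over 2 tests, the smallest p this design allows).

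Lost regions were called to between 43.9% and 61.9% in the earlier libraries, where all 80464 regions were called to between 50.1% and 64.3%, and few were called at 48 h, where all regions were called to 56.4% and 58.7%. They were called to 43.9% and 45.2% in the 0 h libraries and to 48.8% and 51.3% in those of 2 h. The 4 h libraries called 59.7% and 61.9% of them, and the 8 h libraries 60.9% and 59.7%. The 48 h libraries called 7.40% and 8.47% of them, below all 8 earlier libraries. The mean at 48 h was 7.93% ± 0.757 (SD, n = 2) against 53.9% ± 7.46 (SD, n = 8), a difference of -46.0 percentage points (exact two-sided permutation test, p = 0.0444, adjusted p = 0.0444). Both tests rested on the 0 h libraries and on free arrangement of replicate numbers for reaching the threshold: without 0 h the exact permutation p was 0.0714 for both classes, and permuting within replicate numbers it was 0.08 for both, in each case the smallest possible. Both tests also treated the libraries of 0, 2, 4 and 8 h as replicates of 1 condition, which they are not. The rule chose regions by calls at 16 h and 24 h, the times next to 8 h and 48 h. The direction of both differences could thus be foreseen from the choice of regions. Shared regions were called to between 68.9% and 87.4% from 0 to 8 h and to 82.8% and 84.2% at 48 h.

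**Figure D1:**
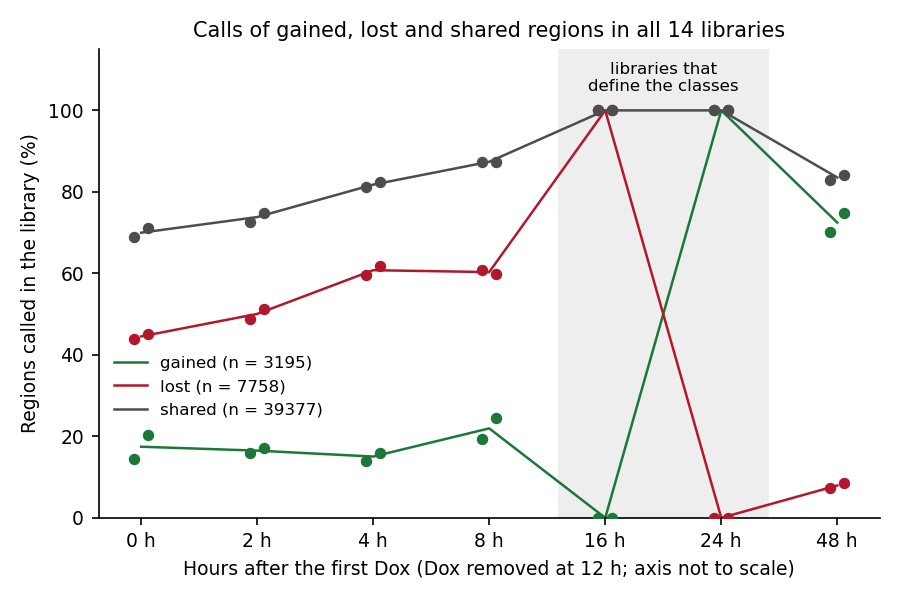
Percent of gained, lost and shared regions called in each library, by hours after the start of Dox. Points are libraries and lines join the means of 2 libraries; the 16 h and 24 h values are 0% or 100% by the rule, gained regions sit at 70.0% and 74.9% at 48 h, and lost regions at 7.40% and 8.47%.

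Region by region, 2013 of the 3195 gained regions (63.0%) were called in both 48 h libraries, where 51.8% of all 80464 regions were. A further 578 gained regions (18.1%) were called in neither 48 h library. No library from 0 to 8 h called 1792 of the gained regions (56.1%), and 1231 of these were called in both 48 h libraries. Only 343 gained regions (10.7%) were called in both 0 h libraries, where 45.6% of all regions were, and 188 were called in both 0 h and both 48 h libraries. Of the 7758 lost regions, 3049 (39.3%) were called in both 0 h libraries and 2804 of these in neither 48 h library. Another 3899 lost regions (50.3%) were called in neither 0 h library. The first time at which both libraries called a lost region was 2 h for 1121 regions, 4 h for 877 and 8 h for 583, and 2128 had no such time before 16 h. Of the lost regions, 6893 (88.9%) were called in neither 48 h library, and 366 (4.72%) were called in both.

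The letters at region centres differed between gained and lost regions. Matches were counted on both strands in the central 200 bp, and a match is a description, not a bound site. GATA letters occurred in 37.5% of gained, 46.9% of lost, 32.4% of shared and 35.9% of all regions. Replicate pairs (1 library of 24 h against that of 16 h with the same number) gave 35.5% and 33.4% for gained and 43.0% and 44.2% for lost regions, without overlap. Every region gained or lost by the rule is also in both pairs. The pairs are therefore not independent here or below, and an SD over them may understate the spread. The GATA letters in permuted order (A or T, then GTAA, then A or G) occurred in 31.0% of gained, 31.3% of lost and 27.6% of all regions. Among regions over 5 kb from a gene start the values were closer, with GATA letters in 43.2% of gained, 49.0% of lost and 43.7% of all such regions.

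The letters TGTTTAC, recognised by FOX factors such as FOXA2, showed the opposite order. They were found in 6.32% of gained, 2.50% of lost and 3.27% of all regions, with pairs at 5.07% and 4.66% for gained and 2.65% and 2.65% for lost regions. The difference for FOX letters was 3.82 percentage points, and 2.38 to 3.09 when any 1 library was left out. FOX letters were thus more frequent in gained than in lost regions in each pair.

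AP-1 letters (TGANTCA), the site of FOS and JUN dimers, were found in 12.3% of lost and 5.60% of gained regions, against 7.33% of all regions. Pairs gave 10.7% and 10.8% for lost and 5.83% and 5.72% for gained regions. OCT letters (ATGCAAAT), bound by OCT4, were found in 3.91% of lost, 1.35% of gained and 2.23% of all regions. The letters CAAGGTCA of ESRRB and NR5A2 were found in 2.53% and 1.41%, and those of KLF factors (GGGNGTGG) in 18.3% and 13.5% of lost and gained regions, with 1.80% and 16.7% in all regions. SOX letters (ACAATG or ACAAAG) were found in 34.5% of lost, 29.3% of gained and 27.6% of all regions. CTCF letters (AGGGGGC, with A also allowed as the third or T as the fourth letter), which mark the insulator protein CTCF, went the other way, with 22.1% in gained, 14.3% in lost and 19.8% in all regions. Letters of TEAD factors (GGAATG) occurred in 17.2%, 14.3% and 14.4% of gained, lost and all regions, and those of TFAP2 (GCCNNNGGC) in 9.14%, 7.12% and 10.2%. The GC content of the windows was 52.0% in gained, 50.3% in lost and 53.9% in all regions, and its part in these shares was not tested.

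The letters of lost regions differed by when the regions had first been called. Of those called in both 0 h libraries, 27.8% held GATA letters, and the share was 57.0% when both libraries first called them at 2 h, 75.0% for 4 h, 76.3% for 8 h and 49.3% when both did so only at 16 h. Permuted letters stayed at 33.3% in lost regions of both 0 h libraries and at 30.3% in those of neither, where GATA letters were in 64.9%. AP-1 letters had a different course: 10.8% for 0 h, 35.1% for 2 h, 9.92% for 4 h, 5.83% for 8 h and 5.31% for a first call at 16 h. Shared regions had much the same course, with GATA letters in 19.3% of those called in both 0 h libraries and in 56.9%, 67.7%, 59.2% and 50.4% of those first called at 2, 4, 8 and 16 h, so this course was found in both classes. Shared and gained regions first called at 2 h held AP-1 letters in 15.9% and 17.2%. These shares come from 1 set of regions each and have no replicate spread.

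**Figure D2:**
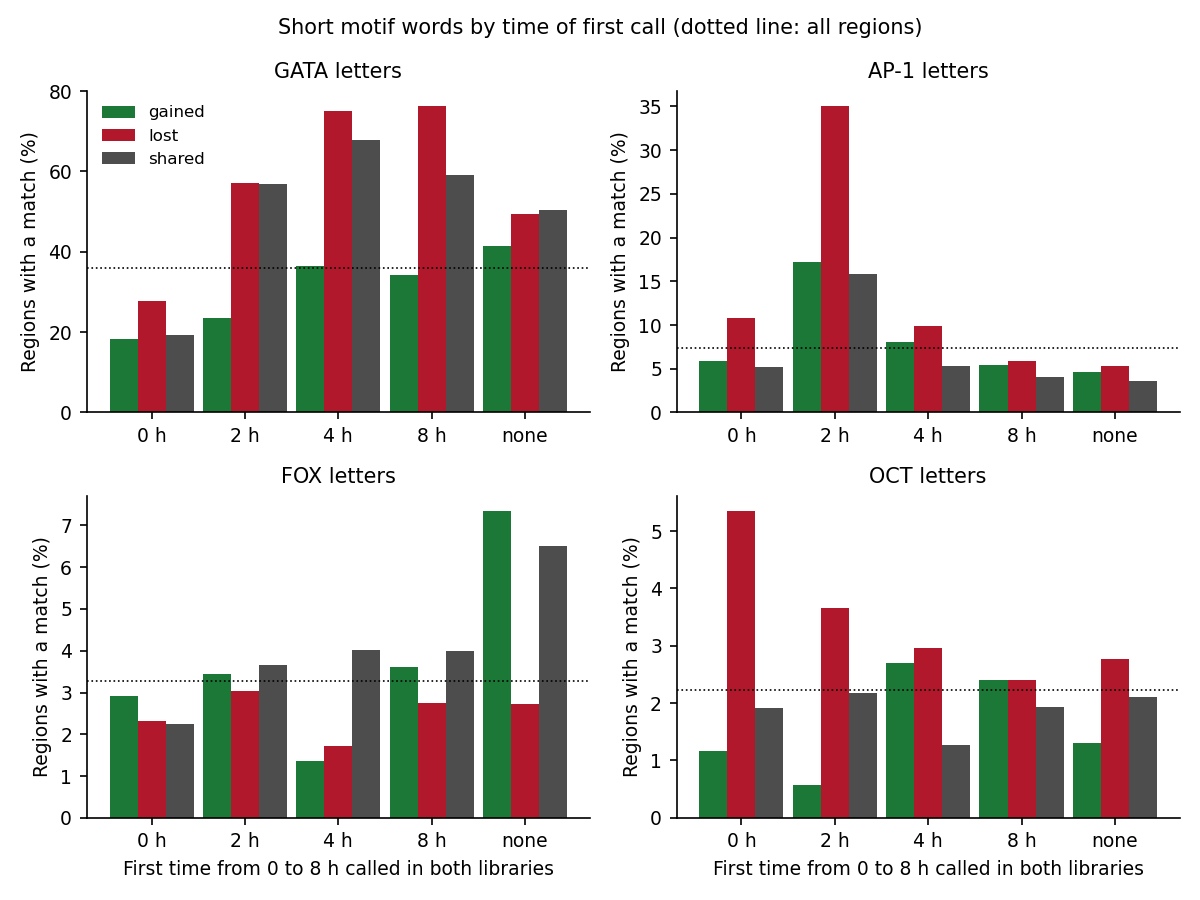
Percent of gained, lost and shared regions with each set of letters in the central 200 bp, by the first time from 0 to 8 h at which both libraries called the region (none: no such time), with a dotted line for all regions. In lost regions GATA letters run from 27.8% at 0 h to 76.3% at 8 h and AP-1 letters peak at 35.1% at 2 h, while in gained regions FOX letters are at 7.34% where there was no such time and at 3.61% or less otherwise.

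In gained regions, FOX letters were most frequent where there had been no earlier call. Of those not called in both libraries of any time from 0 to 8 h, 7.34% held FOX letters, against 2.92% of those called in both 0 h libraries. In shared regions the shares were 6.50% without such an earlier call and 2.24% with both 0 h calls. Among the 1792 gained regions that no library from 0 to 8 h had called, the shares were 8.82% for FOX and 47.3% for GATA letters. Among the groups by first call, OCT letters were most frequent in lost regions called in both 0 h libraries, at 5.35%, against 1.17% of such gained and 1.91% of such shared regions.

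The regions with each set of letters were also followed through the other libraries. The 202 gained regions with FOX letters were called to between 5.94% and 10.4% in the 8 libraries from 0 to 8 h and to 74.8% and 77.2% at 48 h, a mean of 76.0% ± 1.75 (SD, n = 2). Gained regions with GATA letters were called to 76.2% ± 2.01 at 48 h, and those with OCT letters, 43 in number, to 53.5% ± 9.87 (SD, n = 2 each). The first 2 values lay near that of all gained regions, 72.5% ± 3.41, as did the 71.5% ± 0.790 of gained regions with AP-1 letters. The 956 lost regions with AP-1 letters were called to 39.7% ± 0.296 at 0 h, 77.1% ± 1.70 at 2 h, but only 5.65% ± 0.444 of them by 48 h (SD of 2 libraries). Gained regions with AP-1 letters also rose, from 17.6% ± 2.77 at 0 h to 32.4% ± 2.37 at 2 h. Such values were not computed for shared or all regions with these letters, so the rise at 2 h is not shown to be particular to lost regions. Lost regions with GATA letters were called to 26.9% ± 0.622 at 0 h, 41.4% ± 1.53 at 2 h and then 60.5% ± 1.18 by 4 h and 66.8% ± 1.26 by 8 h (SD of 2 libraries). Their 48 h value, 8.08% ± 0.544, was near the 7.93% of all lost regions. The 303 lost regions with OCT letters were called to 58.7% in each 0 h library and to 1.65% in each 48 h library.

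Ranks within each list place both changing classes among the weaker peaks. Each peak has 1 deposited score on an unstated scale, so it was turned into a percentile of its own list, with 100 for the highest. The median percentile of gained regions was 23.6 and 24.4 in the 24 h libraries, a mean of 24.0 ± 0.607 (SD, n = 2). That of lost regions was 24.6 and 31.7 in the 16 h libraries, a mean of 28.2 ± 5.04 (SD, n = 2). Shared regions had medians of 67.6 ± 1.09 in the 16 h and 64.7 ± 0.713 in the 24 h libraries (SD of 2 libraries each). The medians of gained and lost regions differed by less than the SD of the 16 h libraries, and with any 1 library left out they ran from 15.6 up to 27.0 (gained) and from 18.5 up to 30.4 (lost). Some changing regions still ranked high: 183 gained regions (5.73%) and 768 lost regions (9.90%) were at or above percentile 50 in both libraries of their time, 8 and 44 at or above 75, and 0 and 0 at or above 90.

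**Figure D3:**
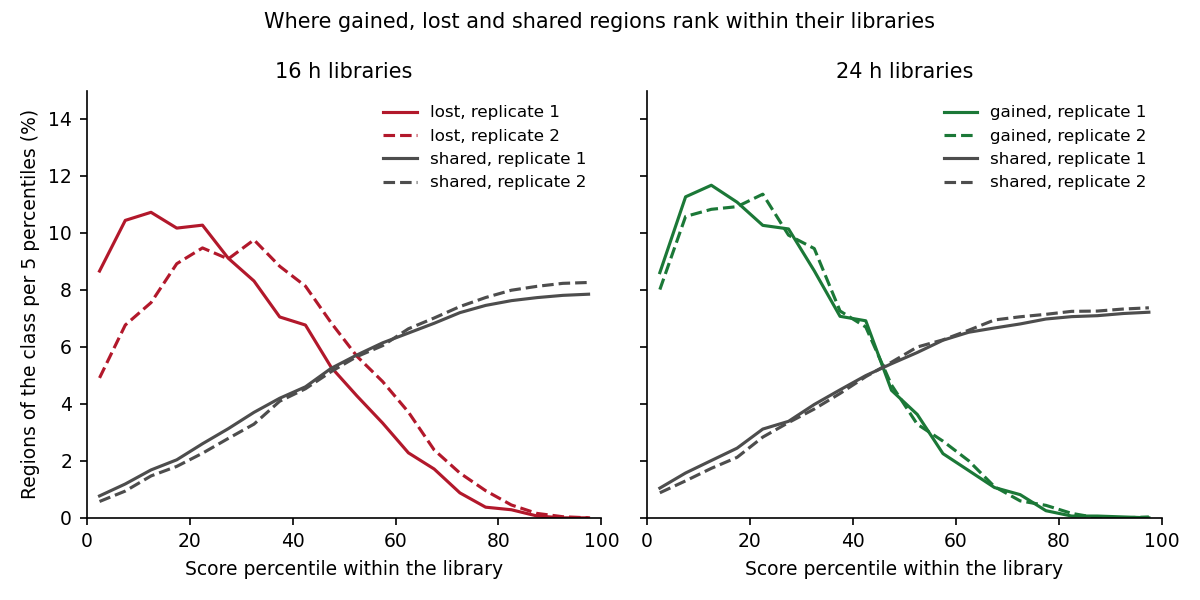
Distribution of score percentiles within each library's own list for gained, lost and shared regions, as percent of the class per bin of percentile, 1 line per library. Gained regions (24 h libraries) and lost regions (16 h libraries) crowd at low percentiles, with medians of 23.6 to 31.7, and shared regions lie higher.

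Shared regions give a graded view of the same interval. Both 24 h percentiles lay above both 16 h percentiles in 10757 shared regions (27.3%) and below them in 13327 (33.8%). The 16 h lists were longer, and with 50000 peaks in every list the median percentile of shared regions was 64.4 at 16 h and 64.7 at 24 h, so a net downward shift was not seen there. These counts, and the changes in percentile given below for gene lists, were not recomputed on lists of equal length. Shifts of over 20 points, counted between the nearest libraries, were upward in 960 regions (2.44%) and downward in 2826 (7.18%). The letters in these sets had the same order as in the gained and lost sets for FOX, GATA, AP-1 and OCT. The sets share no region with those, but they were chosen from the same 4 libraries and are not an independent check. FOX letters were in 7.40% of those up, and in 3.08% both of those down and of all shared regions. GATA letters were in 34.6% of those up and 48.2% of those down, AP-1 letters in 4.48% and 10.8%, and OCT letters in 0.833% and 4.21%. In all shared regions these shares were 32.4%, 6.06% and 1.91%, so that GATA letters lay above this value in both sets. TEAD letters, at 16.3% of those up and 16.6% of those down, did not have the order of the gained and lost sets. The shared region with the largest upward shift lay 7604 bp upstream of Spp2, with percentiles of 6.74 and 11.7 at 16 h and 78.4 and 79.9 at 24 h. A region in an intron of Upb1 and Gucd1 (chr10:75429011-75429509), with 1 FOX match, had percentiles of 31.6 and 32.9 at 16 h and 94.0 and 91.9 at 24 h. The other 3 regions of largest upward shift were nearest to BC025446, Vangl1 and Eda, and all 5 were called in both 48 h libraries. The largest downward shift was in an intron of Sox13 (chr1:133416484-133417204), with 3 GATA matches, at 79.6 and 87.6 at 16 h and 6.04 and 4.55 at 24 h. The next 4 were nearest to Eif4e2, Fnip2, Inmt and Serpine2, and none of these 5 was called in both 48 h libraries.

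The classes also differed in their distance from gene starts, taken as the nearest start of a protein-coding transcript. Within 1 kb of one lay 19.8% of gained, 6.69% of lost, 33.4% of shared and 23.3% of all regions. In the replicate pairs the share was 16.9% and 23.1% for gained and 10.1% and 7.74% for lost regions, without overlap. Over 50 kb from any start lay 21.5% of gained, 31.8% of lost and 21.3% of all regions. The median distance was 13573 bp in gained, 22965 bp in lost, 7993 bp in shared and 12553 bp in all regions. Introns held 44.0% of gained and 47.0% of lost regions, intergenic sequence held 47.8% and 47.4%, and untranslated exons held 5.26% and 3.05%.

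**Figure D4:**
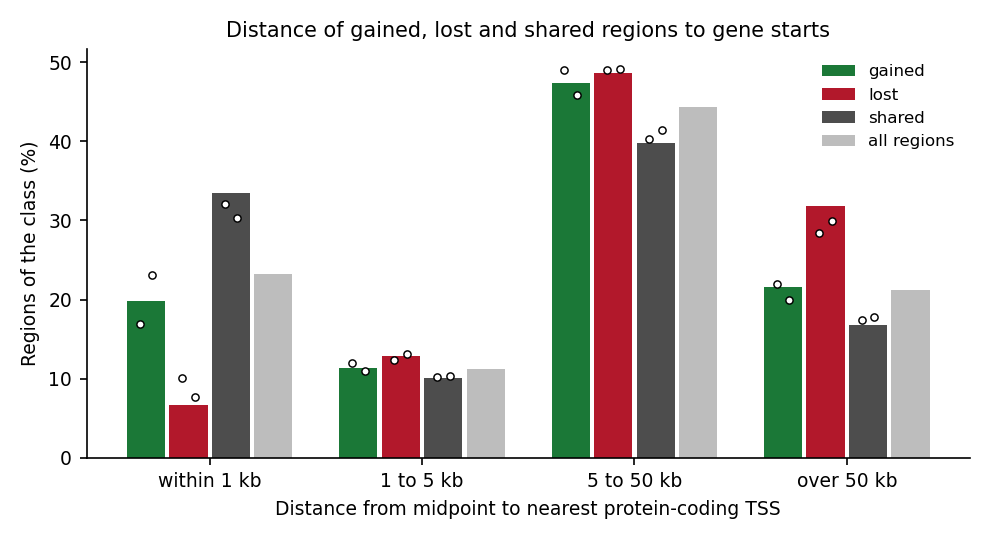
Percent of gained, lost, shared and all regions in 4 classes of distance from the nearest start of a protein-coding transcript, with points for the 2 replicate pairs. Within 1 kb the bars stand at 19.8% (gained), 6.69% (lost) and 33.4% (shared), and over 50 kb at 21.5%, 31.8% and 16.8%.

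Gained regions at gene starts had been called somewhat more often before than gained regions away from them, with a wide spread between libraries. The 632 gained regions within 1 kb of a start were called to 25.0% ± 10.3 at 0 h, 37.3% ± 12.1 at 8 h and then 77.1% ± 7.72 by 48 h (SD of 2 libraries), and the 8 h libraries called 28.8% and 45.9%. The 2201 gained regions over 5 kb from a start were called to 15.3% ± 2.96 at 0 h, 17.9% ± 1.54 at 8 h and then 71.5% ± 2.51 by 48 h. Lost regions at starts, 519 in number, were called to 16.8% ± 4.90 at 48 h, against 7.18% ± 0.521 of the 6240 lost regions over 5 kb away (SD, n = 2 each). The 2 lost values at 48 h, 13.3% and 20.2%, lay above both values of the distal lost regions, 6.81% and 7.55%. These shares were not computed for all regions within 1 kb of a start. A trait of the gained or lost regions thus cannot be told apart here from one of gene starts in general.

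The highest-ranked gained regions away from gene starts were all called for the first time at 24 h. The region 137813 bp upstream of Mocs2, a molybdopterin synthase gene, had percentiles of 90.8 and 84.4 at 24 h. A region in an intron of Pdss2, nearest to the start of Bend3, had 89.4 and 82.4, and 1 in an intron of the kinase gene Hunk had 88.3 and 82.7. The fourth lay 233911 bp upstream of Fn1, the gene of fibronectin, at chr1:71886800-71887422 with percentiles of 79.8 and 81.2. The last lay in an intron of Nrg4, nearest to the start of Fbxo22, with 80.6 and 79.8. None of the 5 was called in any library from 0 to 16 h, and all 5 were called in both 48 h libraries.

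The highest-ranked lost regions away from starts had 2 kinds of history. A region in an intron of Cubn, nearest to the start of Rsu1 (chr2:13370537-13370960), with percentiles of 87.4 and 88.7 at 16 h, and 1 downstream of Kl (chr5:151029004-151029458), with 83.9 and 87.9, were called in both 0 h libraries. The Btbd3 intron region (85.7 and 89.0), a region in an untranslated exon of Rcor1 nearest to Traf3 (84.6 and 87.8) and the Txnrd3 intron region (84.4 and 87.5) were called in neither 0 h library and in both libraries at 4, 8 and 16 h. The last 3 held 3, 2 and 5 GATA matches. None of the 5 was called at 48 h. The 5 highest-ranked shared regions away from starts, nearest to Limd1, Myo3a, Myl12b, Cntnap5b and Zfp945, ranked at or near percentile 100 in each list and were called in all 14 libraries. In the Myo3a region 70.9% of 25-base words also occurred in mitochondrial DNA, while 0 of the 3195 gained and 0 of the 7758 lost regions shared over 50% of their words with it. Copies of ribosomal or other repeated sequence were not searched for. Whether the ranks of these 5 shared regions reflect accessibility was therefore not tested.

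At gene starts, the gained region of highest rank was 576 bp upstream of Rasa2, a Ras GTPase-activating gene, with percentiles of 69.2 and 69.9 at 24 h. It and the region at Pdzk1, a scaffold gene of transporting epithelia (69.8 and 65.0), had no call from 0 to 16 h. Those at Zfp260, Gabarap and Tnrc18 had been called at 8 h in both libraries and missed at 16 h. All 5 were called in both 48 h libraries. The lost regions of highest rank at starts were at Gkn1, Adam8, Gm11084, Sox2 and Arhgap21. The Gkn1 region, with 2 GATA matches and 1 AP-1 match, had percentiles of 69.6 and 85.2 and was called at 4, 8 and 16 h alone.

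Genes expressed more in PrE than in Epi cells of the blastocyst, or the reverse, were listed by the study from single-cell RNA data, so these lists do not rest on the ATAC-seq libraries. A region was assigned to the gene with the nearest start within 50 kb, where 3.96% of all regions were gained and 8.35% lost. Near the 577 PrE genes found in the annotation, 149 of 3086 regions were gained (4.83%) and 229 lost (7.42%). Near the 220 Epi genes, 49 of 1450 were gained (3.38%) and 173 lost (11.9%). Gained regions made up 39.4% of changed ones for PrE genes, 22.1% for Epi genes and 32.2% for all genes. In the replicate pairs these shares were 45.5% and 45.4% for PrE, 32.3% and 29.3% for Epi and 40.3% and 38.1% for all genes, and the 3 did not overlap. With the 50000 highest scores of each library the shares were 55.5% for PrE and 34.3% for Epi genes, and without replicate 1 of 24 h the PrE share was 51.5%, so whether lost or gained regions were the more numerous near PrE genes depended on these settings.

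The shared regions moved the same way by rank. The median change in percentile from 16 h to 24 h was +0.457 ± 0.125 near PrE genes, -3.08 ± 0.490 near Epi genes and -0.0612 ± 0.0980 near all genes (SD over 2 replicate pairs). Of the 149 gained regions near PrE genes, 114 (76.5%) were called in both 48 h libraries and 97 (65.1%) in no library from 0 to 8 h, against 63.3% and 52.6% of all gained regions within 50 kb. Of the 173 lost regions near Epi genes, 85 (49.1%) were called in both 0 h libraries and 151 (87.3%) in neither 48 h library, against 39.1% and 87.9% of all lost regions within 50 kb. Of the 229 lost regions near PrE genes 73 (31.9%) were called in both 0 h libraries and 116 (50.7%) held GATA letters, which 44.1% of all lost regions within 50 kb did.

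**Figure D5:**
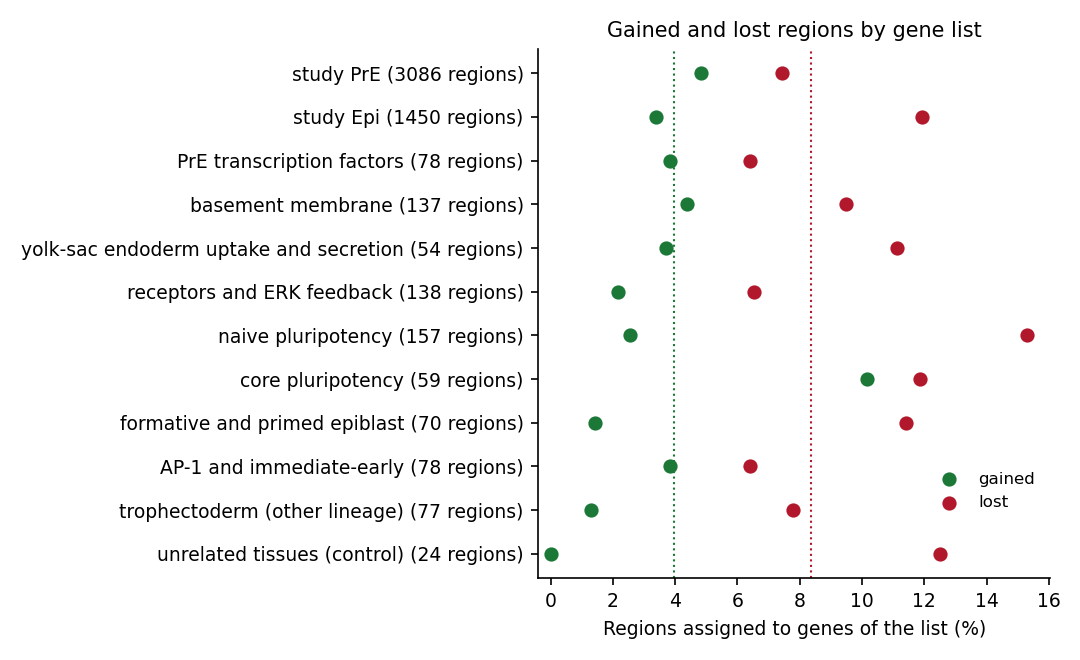
Percent of the regions assigned to each gene list that were gained or lost from 16 h to 24 h, with dotted lines at the same values for all regions within 50 kb of a gene start. PrE genes of the study lie at 4.83% gained and 7.42% lost, Epi genes at 3.38% and 11.9%, and naive pluripotency genes at 2.55% and 15.3%.

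The regions of highest rank near study genes included several with known roles. Near PrE genes the gained regions of highest rank were at Ptpn14, a phosphatase gene (72.6 and 76.1), Lmna, which encodes the nuclear lamins A and C (70.0 and 66.4, 3 GATA matches), Podxl, a sialomucin gene (68.4 and 67.1), and Gabarap. All 4 were called in both 48 h libraries. The lost regions of highest rank near PrE genes were at Twf1 (80.1 and 80.5, 3 GATA matches), Akap13, Nostrin, Baz1a and Tm2d1, and none of these was called at 48 h. Near Epi genes the lost regions of highest rank were at Lef1, a Wnt-pathway transcription factor gene (83.6 and 86.1), Zfp532, Chd9, Zfp57, an imprinting regulator, and Sox2. The first 4 had been called in both 0 h libraries. The gained regions of highest rank near Epi genes were at Hmgxb4, Pnp, Nfib, Parp1 and Epcam, and all were called in both 48 h libraries. Percentiles at the gained Epcam region, 7 bp upstream of this epithelial adhesion gene, were 60.3 and 31.2.

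PrE transcription factors were then taken one by one, with 3 gained (3.85%) and 5 lost (6.41%) among 78 regions of 9 genes, beside 3.96% and 8.35% of all regions. Gata4 lost 4 of its 18 regions and gained none, with 16 h percentiles from 5.86 to 71.7, and 2 of the 4 were called in both 0 h libraries. Hnf4a, a nuclear receptor of visceral endoderm and liver, gained a region 64 bp upstream of a start (chr2:163547004-163547242, percentiles 46.1 and 43.9), called at 24 h and 48 h alone. Gata5 gained 1 at chr2:180320297-180320582 with percentiles of 72.8 and 75.9. At Gata6 itself a region 499 bp upstream was lost and 1 at 15 bp upstream was gained, with percentiles of 32.5 and 20.5 and of 24.0 and 12.7. All 14 libraries had a call within 1 kb of the Gata6 start, so these 2 calls do not show that the start as a whole opened or closed. No region of Sox17, Sox7, Foxa2, Foxq1 or Eomes was gained or lost.

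The products that PrE cells secrete or take up had both kinds of region. Of 137 regions near basement membrane genes 6 were gained (4.38%) and 13 lost (9.49%), near the values for all regions of 3.96% and 8.35%. Lama1, the laminin alpha chain gene of the PrE basement membrane, gained 2 neighbouring regions 13933 and 13620 bp upstream, called at 24 h and 48 h alone, with 1 GATA match each. It lost an intron region (chr17:67703013-67703385, percentiles 58.3 and 66.3) that was called at 16 h alone. Lama5, another laminin gene, gained a region 60 bp upstream (50.3 and 57.9), and Hspg2, which encodes perlecan, gained 2. Lamb1, Col4a1 and Fbln1 lost 2 regions each and gained none, and Lamc1 lost 2 and gained 1, whose percentiles of 15.2 and 95.8 differed widely between the 24 h libraries. None of the 13 lost regions was called at 48 h. Of 54 regions near genes of yolk-sac uptake and secretion, 2 were gained (3.70%) and 6 lost (11.1%). Dab2, an endocytic adaptor gene, gained a region 39524 bp upstream (chr15:6259877-6260652, percentiles 53.1 and 56.1), and Ttr, which encodes transthyretin, gained 1. Cubn, the cubilin receptor gene, lost 2.

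Ligand, receptor and feedback genes of the FGF pathway, taken with Pdgfra, had 3 gained (2.17%) and 9 lost (6.52%) among 138 regions. Both shares lay below the 3.96% and 8.35% of all regions within 50 kb of a gene start. Fgf4, the ligand gene, lost 3 regions, of which 2 were called in both 0 h libraries. Fgfr2, a receptor gene, gained an intron region (44.0 and 31.1) and Fgfr3 gained 1 at 610 bp upstream (22.0 and 17.6), neither of them called at 48 h. The feedback and target genes Dusp6, Spry4, Etv4 and Etv5 lost 1 region each. Pdgfra, a PrE receptor gene, lost 2 and gained 1, and the lost region 837 bp upstream was called again in both 48 h libraries. The median change in percentile of shared regions near this list was -4.24 ± 0.114 (SD over 2 replicate pairs).

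Naive pluripotency genes had the highest share of lost regions of the lists examined, with 24 lost (15.3%) and 4 gained (2.55%) of 157. Of all regions within 50 kb of a gene start, 8.35% were lost and 3.96% gained. Of the 14 genes, 10 lost a region. Esrrb, an orphan nuclear receptor gene of the naive state, lost 8 of 29 and gained none, with percentiles from 3.15 to 64.1, and 5 of the 8 were called in both 0 h libraries. Of the 8, those at chr12:86501578-86501790 and chr12:86501839-86502209 lay within 100 bp of each other and were counted separately. Tbx3, which is also on the PrE list of the study, lost 4 and gained 2. Klf5 lost 3, Klf2 and Tfcp2l1 lost 2 each, and Klf4, Prdm14, Tcl1, Zfp42 and Fbxo15 lost 1 each. Of the 24 lost regions 23 were called in neither 48 h library. The 4 gained ones, at Klf4, Tbx3 and Tfcp2l1, had no earlier call and were called in both 48 h libraries. Nanog, Dppa3, Nr0b1 and Nr5a2 had none of either kind.

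Core pluripotency genes had 6 gained (10.2%) and 7 lost (11.9%) of 59 regions, beside 3.96% and 8.35% of all regions. Sox2 lost 3 and gained 1 of 11. A lost region lay in its coding exon (chr3:34650808-34651363, 69.5 and 80.4) and was called at 16 h and in 1 library of 48 h. Another, 18231 bp downstream (chr3:34668439-34668834, 67.9 and 77.2), was called in every library from 0 to 16 h and not afterwards. Pou5f1, Lin28a and Utf1 gained 1 each, Sall4 and Sall1 gained 1 and lost 2 each, and 4 of the 6 gained regions were called in both 48 h libraries. Formative and primed epiblast genes, which act as cells leave the naive state, had 1 gained (1.43%, at Otx2) and 8 lost (11.4%) of 70. T, which encodes brachyury, and the DNA methyltransferase gene Dnmt3a lost 2 each, and Lef1, Zic2, Nodal and Dnmt3b 1 each.

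The last 3 lists served as comparison. AP-1 and immediate-early genes had 3 gained (3.85%) and 5 lost (6.41%) of 78 regions, with 2 lost at Myc. Trophectoderm genes had 1 gained (1.30%) and 6 lost (7.79%) of 77, with Tead4 losing 2. Genes of unrelated tissues had 0 gained and 3 lost (12.5%) of 24, a lost share above the 11.9% of Epi genes. The median change in percentile of shared regions was +2.05 ± 2.56, -3.69 ± 1.32 and -2.68 ± 2.76 near these lists, in the same order (SD over 2 replicate pairs). The last 2 values lay near the -3.08 of Epi genes. Shares in lists this small move by over a percentage point with a single region.

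Over all genes, 16709 had at least 1 region assigned. Of these 2176 had a gained region, 4035 a lost region and 717 both. At 45 genes 3 or more regions were gained, and at 236 genes 3 or more were lost. The most gained regions were at Prex1, a Rac exchange factor gene, with 6 of 31 and 3 lost. Atp8b1, a phospholipid flippase gene, Keap1, the sensor of NRF2, Trim2 and Abt1 gained 4 each and lost none. Hs3st3b1, Nfatc4 and Grik4 gained 4 and lost 1 each, and the PrE genes Tpcn1 and Rab3il1 gained 3 each. The most lost regions were at Tspan5, a tetraspanin gene, with 9 of 20 and none gained, followed by Esrrb with 8 of 29 and Macf1, a cytoskeletal linker gene, with 7 of 34. Col18a1 and Itpk1, both on the Epi list, lost 6 of 23 each, Coro2b lost 6 of 25 and Pde4d 6 of 39. Dock1, Etv6 and Gramd1b lost 5 each, and Gramd1b is on the PrE list. Genes with more regions have more that can change, so these counts do not rank the genes by their share.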

How the data were processed

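ATAC-seq libraries were made from 50000 cells each, 2 at each of 7 time points, and grouped by the labels' titles. The authors processed reads with the ENCODE ATAC-seq pipeline and deposited 1 peak list per library. Per the file names, each list was filtered by irreproducible discovery rate between pseudoreplicates of its library, and by a blacklist, so replicates were not pooled. The deposited score of each peak is 1 unnamed value on an unstated scale, used only to rank peaks within a list. The submitters' processing notes name mm10, GRCm38 and deepTools, without versions or roles. The lists hold no counts, so no interval is given, and a region not called may be open below a library's threshold.

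Peaks of the 4 compared lists were merged at 1 bp overlap, and a region's percentile was that of its highest peak. Midpoints were assigned to the nearest start of a GENCODE M21 protein-coding transcript within 50 kb. Matches were counted in the central 200 bp of RefSeq GRCm38.p6 sequence. Percents of gained and lost regions called at 48 h and from 0 to 8 h were compared by an exact two-sided permutation test over libraries, adjusted over 2 tests (Benjamini-Hochberg). The classes, distances, lists and letters were otherwise described without tests. Members and gene lists were chosen with earlier results of these data known. Named were the 5 regions of each class with the highest mean percentile over 5 kb from starts, the 5 gained and 5 lost ones within 1 kb, the 5 shared regions with the largest shift either way, the 5 gained and 5 lost of highest rank near study genes, list genes with a gained or lost region, and the 10 genes with most of either. Alternatives kept the 50000 highest peaks, required 50% coverage, merged within 100 bp or over 14 lists, changed distances and windows, ranked by width, left out libraries or permuted within replicate numbers. Deviations of same-numbered libraries correlated at r = 0.0328 over 39377 shared regions, and the labels do not pair them. The labels give no batch. Some genes and a set of letters named by these rules are not reported here. Scripts recovered known classes in simulated lists and used Python 3.11.15, numpy 2.4.6, scipy 1.17.1 and matplotlib 3.10.9.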

Additional observations from a re-analysis of the deposited data

How the results depend on the processing

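A recomputed count of regions was taken as unmoved within a factor of 1.5 of the main count, which can exceed the spread between replicates. Other values were taken as unmoved within that spread or, for tests, on their side of the threshold. Of 130 recomputed values, 54 were unmoved by these limits, 72 moved, 4 no longer passed the threshold and 0 reversed. The 4 were the differences at 48 h: without the 0 h libraries 54.6 percentage points for gained and -49.1 for lost regions, and with the replicate block 54.7 and -46.0. No smaller p was possible there (0.0714 over 28 and 0.08 over 25 arrangements). With the 50000 highest scores, the gained share was 42.3% (Epi genes 34.3%, PrE genes 55.5%), shared regions within 5 kb 45.0%, median percentiles 23.2 (gained) and 64.4 (shared, 16 h), and the motif differences 7.67 (AP-1), 12.3 (GATA) and 2.95 (OCT) points. Merging within 100 bp gave a gained share of 26.7%, and assignment within 20 kb 24.5% for Epi and 42.0% for PrE genes. Within 1 kb lay 19.8%, 6.69% and 33.4% of gained, lost and shared regions. Ranked by width, medians were 30.5 (gained), 43.1 (lost), 60.7 and 61.5 (shared, 16 h and 24 h). Over whole regions, which are wider when lost, motif differences were 12.3 (AP-1), 3.16 (FOX), 18.9 (GATA) and 4.25 (OCT) points, and over 5 kb from starts 4.94 (FOX), 5.86 (GATA) and 2.82 (OCT). The cause of these shifts was not tested.

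Leaving out each library in turn gave 5171 to 6842 gained, 10284 to 14106 lost and 41575 to 42892 shared regions, and a gained share of 26.8% to 40.0% (Epi 21.5% to 31.4%, PrE 37.2% to 51.5%). The differences at 48 h ran from 40.8 to 46.2 and from -40.6 to -35.0 points. Within 5 kb of starts lay 30.3% to 37.0% of gained, 20.0% to 21.3% of lost and 42.0% to 43.8% of shared regions. Median percentiles were 15.6 to 27.0 (gained), 18.5 to 30.4 (lost), 65.0 to 66.2 and 61.8 to 63.1 (shared, 16 h and 24 h). Motif differences were 5.65 to 6.22 (AP-1), 2.38 to 3.09 (FOX), 9.10 to 11.9 (GATA) and 2.26 to 2.43 (OCT) points. Depth limits both classes, because a weak region may be called in 1 library and missed in another.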

Other observations

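Gained regions were also divided by their calls at 48 h. The 578 called in neither 48 h library had KLF letters in 21.3% and OCT letters in 2.60%, against 11.4% and 0.894% of the 2013 called in both, and SOX letters in 23.4% against 32.9%. For KLF and OCT letters the same order was found in shared regions, with 22.5% and 4.02% of those called in neither 48 h library against 15.5% and 1.49% of those called in both, and in lost regions, with 19.0% and 4.27% against 13.1% and 0.273%. SOX letters had the opposite order in shared regions, 29.5% against 24.6%, and the same order in lost regions, 34.5% against 36.3%. The median percentile at 24 h of the 578 gained regions was 15.2 against 28.2, and 11.6% against 20.4% lay within 1 kb of a gene start. The 366 lost regions that both 48 h libraries called again had GATA letters in 50.3%, OCT letters in 0.273% and AP-1 letters in 7.92%, and 13.1% lay within 1 kb of a start, while all lost regions had OCT letters in 3.91% and AP-1 letters in 12.3%. These shares have no replicate spread and were not tested.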
